A study of Homo sapiens with 61 samples.

Results

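BDNF, NTF3 and GDNF, which encode secreted neurotrophic factors, and NTRK2, NTRK3, SORT1, RET and GFRA1, which encode their receptors and co-receptors, were followed across human neurons exposed to vincristine. The genes were chosen by name, with earlier results of these data known. All 8 of them were found among the 58440 gene identifiers of the count tables. The neurons came from the human stem cell line WTC11, an established induced pluripotent line, in which a doxycycline-inducible cassette makes NGN2, a factor that turns stem cells into excitatory neurons. Experiment 1 compared the wild-type line (WT) with 3 knockout lines. These lacked DLK (DLK KO), LZK (LZK KO) or both kinases (DLK LZK double KO), and each line had 4 untreated and 4 vincristine libraries. Experiment 2 used WTC11 i3Neurons that carry the CRISPR interference machinery, so all of its groups share it, and that received lentivirus with a scrambled Control gRNA, an ATF2 gRNA or a JUN gRNA, with 5 libraries per group except ATF2 gRNA vincristine, which had 4. On day 14 the cultures received 5 nM vincristine, a drug that blocks microtubule assembly, or the vehicle DMSO (called untreated here) for 16 hours. In all there were 61 libraries in 14 groups. The labels describe 1 line per knockout and do not say whether a line is a single clone, so a difference between lines cannot be told apart from a difference between clones. They also do not say whether replicates are separate differentiations, so p-values measure the spread between these libraries.

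Neurotrophins are survival and growth signals for neurons. BDNF acts mainly through TrkB, the receptor tyrosine kinase made from NTRK2, and NT-3, made from NTF3, acts mainly through TrkC, made from NTRK3. Both are made as precursors, and sortilin, the product of SORT1, binds the precursors, sorts BDNF for secretion and pairs with the receptor p75NTR (gene NGFR) in signalling by the unprocessed forms. GDNF uses another route: it binds GFRA1, an anchored co-receptor, and the pair activates the receptor tyrosine kinase RET. DLK and LZK are related kinases upstream of the JNK pathway, which in damaged neurons acts on transcription factors such as JUN and ATF2. JUN and ATF2 bind DNA as dimers, at AP-1 sites and at cyclic AMP response elements (CRE).

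The start regions of the member genes were read from RefSeq (GRCh38.p14) because ATF2 and JUN, 2 of the targeted genes, encode factors that bind the short motifs named above. The upstream sequences shown are those of BDNF and NTF3, the ligands that could be measured. Of the members' 24 annotated start windows of 250 bases, 0 held the CRE TGACGTCA, 0 held the AP-1 letters TGANTCA and 1 held the shorter CRE form TGACGT, each searched on both strands. Over all 35116 start windows of the same length these shares were 1.65%, 6.57% and 7.10%. The full CRE contains the shorter form, so the 2 searches overlap. The single match lies in the fourth BDNF window, 48 bases before the start, and is in capitals in the BDNF sequence, while the NTF3 window is shown because it held no match. Both sequences run 5′ to 3′ on the gene's strand and end at the base before the start. The first is BDNF chr11:27701622-27701871 on the minus strand, and the second is NTF3 chr12:5431858-5432107 on the plus strand. A match is a description of letters and not evidence of a bound site.
BDNF: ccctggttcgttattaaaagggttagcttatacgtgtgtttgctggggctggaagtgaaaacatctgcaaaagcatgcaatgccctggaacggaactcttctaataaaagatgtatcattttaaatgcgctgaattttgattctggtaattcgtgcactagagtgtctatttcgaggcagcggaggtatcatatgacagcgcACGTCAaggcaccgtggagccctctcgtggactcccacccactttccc
NTF3: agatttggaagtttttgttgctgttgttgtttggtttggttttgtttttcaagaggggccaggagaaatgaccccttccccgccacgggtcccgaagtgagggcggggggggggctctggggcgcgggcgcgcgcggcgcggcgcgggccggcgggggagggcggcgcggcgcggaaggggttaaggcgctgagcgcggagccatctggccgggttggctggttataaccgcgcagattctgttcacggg

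Library totals ran from 8410729 to 14647819 counts in experiment 1 and from 38925807 to 88392414 in experiment 2. Levels are in CPM, counts scaled to a common library size with TMM factors, and are compared within an experiment only. Transcripts of the targeted genes were lower in the lines named for them. In untreated cells MAP3K12 (DLK) averaged 91.0 CPM in WT against 26.3 (DLK KO) and 19.7 (double KO), and MAP3K13 (LZK) averaged 99.1 CPM in WT against 31.9 (LZK KO) and 29.6 (double KO). Mean ATF2 was 129 CPM with Control gRNA against 0.526 with ATF2 gRNA, and mean JUN was 88.5 against 2.87 with JUN gRNA. JUN was also lower in ATF2 gRNA, at 21.0 CPM, and ATF2 was lower in DLK KO, at 71.0 CPM against 141 in WT. Library 4 of WT vincristine stood apart from its group, with a root mean square deviation from the group mean of 0.417 log2 units over all tested genes, against 0.213 to 0.374 in the other 31 libraries of experiment 1. The summed level of 8 neuron markers was 5472 to 9210 CPM in experiment 1 and 5330 to 8254 in experiment 2. Of the cortical markers, TBR1 reached at most 3.16 and 1.94 CPM, while the sensory neuron factor POU4F1 stood at 108 to 455 and 185 to 493 CPM. Astrocyte marker sums reached 6.16 and 8.42 CPM, and mesenchymal sums reached 5.09 and 8.38 CPM.

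All 8 members lie on GRCh38 as protein-coding genes. They are BDNF (ENSG00000176697.18, chromosome 11, 27654893 to 27722058), NTF3 (chromosome 12, 5432112 to 5521536), GDNF (chromosome 5, 37812677 to 37839686), NTRK2 (chromosome 9, 84668551 to 85027070), NTRK3 (chromosome 15, 87859751 to 88256768), SORT1 (chromosome 1, 109309568 to 109397951), RET (chromosome 10, 43077027 to 43130351) and GFRA1 (chromosome 10, 116056925 to 116273467). Per kilobase of exon, the receptors were far above the ligands in untreated WT and in untreated Control gRNA, the control lines ranked here. In untreated WT, SORT1 (15.0 ± 0.499 CPM per kb, SD, n = 4) and GFRA1 (15.0 ± 1.08) led and did not differ beyond their spread. They were followed by NTRK2 (6.02 ± 0.352) and NTRK3 (5.99 ± 0.508), again alike within their spread, and by RET (4.76 ± 0.163). BDNF (0.217 ± 0.098), NTF3 (0.0993 ± 0.0746) and GDNF (0.0446 ± 0.0178) came last, and the mean ± SD ranges of neighbours in that order overlapped. In untreated Control gRNA the order was GFRA1 (19.9 ± 1.07, n = 5) and SORT1 (19.1 ± 0.876) within their spread, then RET (12.0 ± 0.459), NTRK3 (5.69 ± 0.675) and NTRK2 (4.52 ± 0.175), then NTF3 (1.21 ± 0.300), BDNF (0.215 ± 0.0226) and GDNF, which had counts in 1 of 5 libraries.

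Vincristine moved most members in the control lines of both experiments: BDNF rose, while SORT1, RET and GFRA1 fell. A gene was called at an adjusted p under 0.05 in the quasi-likelihood test of edgeR, with the Benjamini-Hochberg adjustment made across every gene tested. In WT, 5 of the 7 members tested were called (2 higher, 3 lower; 30.2% of all genes tested were called, 15.7% higher and 14.5% lower), and in Control gRNA 6 of 8 (1 higher, 5 lower; 35.3% of all genes, 17.1% higher and 18.1% lower). GDNF was too low to be tested in experiment 1. In DLK KO 0 of 7 were called (6.53% of all genes, 4.24% higher and 2.28% lower), with 2 at an unadjusted p under 0.05 and 0 called by DESeq2. Voom and the fit of only the groups compared each called 2 members lower in DLK KO, NTF3 and NTRK3, and raised the count over all genes from 1190 to 3583 and 3207. In LZK KO NTRK2 was called higher and no other member (1 of 7; 3.88% of all genes, 2.27% higher and 1.61% lower). In double KO 0 of 7 were called (0.0658% of all genes, 0.00548% higher and 0.0603% lower), with 0 at an unadjusted p under 0.05 and 0 called by DESeq2. In ATF2 gRNA 4 of 8 were called (2 higher, 2 lower; 6.10% of all genes, 1.88% higher and 4.22% lower) and in JUN gRNA 3 of 8 (1 higher, 2 lower; 15.9% of all genes, 7.58% higher and 8.31% lower). DESeq2 called 4 members in JUN gRNA, with SORT1 added, and as many as edgeR in each of the other 6 lines. Every called member had treated and untreated libraries that did not overlap, a state that over all genes held for 25.0% (WT), 19.5% (DLK KO), 7.79% (LZK KO), 9.94% (double KO), 28.9% (Control gRNA), 7.36% (ATF2 gRNA) and 11.8% (JUN gRNA). The median log2 change of the tested members was -0.37 in WT and -0.44 in Control gRNA, and between -0.15 and 0.03 in the other 5 lines, beside all-gene medians of -0.02 to 0.03. The plot of the change with vincristine shows these values side by side.

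**Figure D1:**
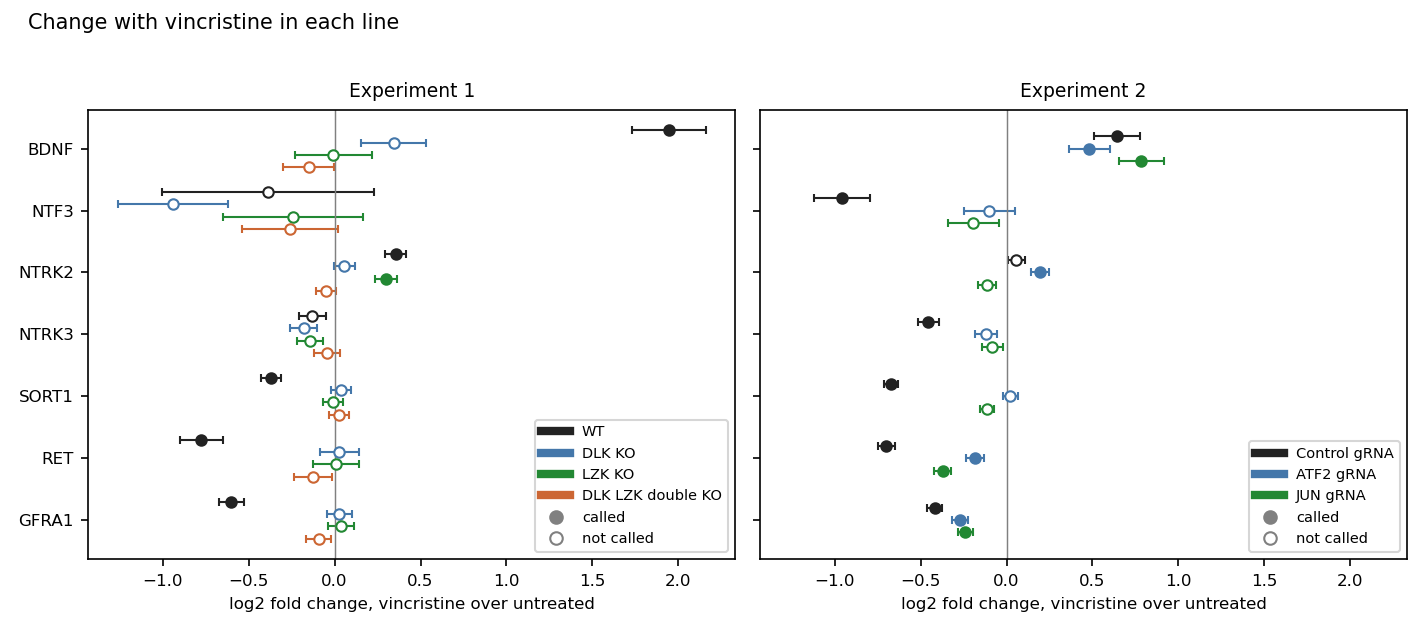
Log2 fold change of vincristine over untreated libraries (x axis) for the 7 members tested in both experiments (y axis), by line, with bars of 1 standard error; filled points were called and open points were not. In experiment 1 the black WT points lie away from 0 for BDNF (1.95), RET (-0.78) and GFRA1 (-0.60), while the double KO points lie between -0.26 and 0.02.

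In a pool of RNA, fewer cells of a type and less RNA per cell cannot be told apart, and sums of other cell types' markers moved with the treatment. The summed level of 7 neural progenitor markers, most of it NES, went from 785 to 829 CPM in untreated WT to 1063 to 2105 with vincristine, and from 1328 to 1421 to 2565 to 2660 in Control gRNA. It also went from 240 to 306 CPM to 538 to 650 in DLK KO and from 602 to 758 to 1116 to 1315 in LZK KO, where 0 and 1 members were called. It was 321 to 331 and 325 to 345 CPM in double KO, and 767 to 841 and 733 to 845 in ATF2 gRNA, and went from 967 to 1090 CPM to 1670 to 1776 in JUN gRNA. The sum of 6 peripheral or sensory neuron markers, most of it POU4F1, went from 438 to 471 CPM to 128 to 228 in WT and from 512 to 533 to 227 to 250 in Control gRNA. Smaller falls without overlap were seen in JUN gRNA (436 to 470 CPM against 348 to 381) and ATF2 gRNA (246 to 268 against 217 to 224), lines in which RET and GFRA1 also fell. It was 440 to 466 and 448 to 493 CPM in double KO, 225 to 271 and 261 to 279 in DLK KO, and 198 to 224 and 190 to 210 in LZK KO. RET, NTRK2, NTRK3 and GFRA1 are also made by sensory neurons. The part of these marker changes in the member results was not tested.

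BDNF gave the largest rise with vincristine of any member in WT. Its levels in untreated WT were 1.43, 2.80, 1.40 and 1.09 CPM, and with vincristine 7.19, 4.86, 6.95 and 7.01 CPM. Every WT vincristine library was above every untreated one, and the fitted rise was 3.85-fold (log2 1.95, SE 0.21, adjusted p = 3.61e-09). In the knockout lines the treated and untreated libraries overlapped. DLK KO had 3.25, 4.09, 5.21 and 4.84 CPM untreated and 4.95, 5.38, 5.77 and 6.00 with vincristine (log2 change 0.34, SE 0.19, adjusted p = 0.268). LZK KO had 5.00, 2.17, 3.15 and 2.94 CPM untreated and 3.10, 3.33, 3.07 and 3.75 with vincristine (-0.01, SE 0.22, adjusted p = 0.993). Double KO, which held the highest BDNF levels of experiment 1, had 16.5, 13.8, 12.6 and 13.5 CPM untreated and 12.1, 11.9, 13.9 and 12.8 with vincristine (-0.15, SE 0.15, adjusted p = 0.848).

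The difference in the BDNF response between lines was itself tested as an interaction term. It was -1.60 for DLK KO against WT (SE 0.29, adjusted p = 0.000111), -1.95 for LZK KO (SE 0.31, adjusted p = 3.21e-05) and -2.10 for double KO (SE 0.26, adjusted p = 1.55e-07), all on the log2 scale. These 3 differences share the same WT libraries. Untreated BDNF already stood higher in each knockout line than in WT. The vincristine levels of DLK KO (mean 5.53 ± 0.462 CPM, SD, n = 4) were near those of WT (6.50 ± 1.10). Libraries of these 2 groups overlapped only through WT library 2, at 4.86 CPM, and the other WT libraries stood above DLK KO. Every LZK KO vincristine library was below every WT vincristine library, and every double KO one was above. Vincristine levels were not tested between lines.

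In experiment 2, BDNF rose with vincristine in every line. Control gRNA libraries had 1.83, 1.46, 1.81, 1.49 and 1.72 CPM untreated and 3.19, 2.81, 2.40, 2.23 and 2.33 with vincristine, a rise of 1.56-fold (log2 0.64, SE 0.13, adjusted p = 0.00011). JUN gRNA libraries had 1.85, 1.87, 1.64, 1.91 and 1.31 CPM untreated and 3.34, 2.97, 3.19, 2.89 and 2.40 with vincristine, a rise of 1.72-fold (log2 0.78, SE 0.13, adjusted p = 1.00e-05). ATF2 gRNA libraries had 18.1, 16.7, 13.6, 14.4 and 17.0 CPM untreated and 23.7, 22.4, 19.5 and 23.4 with vincristine, a rise of 1.40-fold (log2 0.48, SE 0.12, adjusted p = 0.00788). Treated and untreated libraries did not overlap in any of the 3 lines. The difference in response from Control gRNA was not called for ATF2 gRNA (-0.16, 95% interval -0.52 to 0.19, adjusted p = 0.603) or for JUN gRNA (0.14, -0.23 to 0.51, adjusted p = 0.735), and the intervals leave room for differences of either sign.

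Before any treatment, BDNF already differed between most lines and their control. Against untreated WT it was 2.59-fold higher in DLK KO (log2 1.37, SE 0.23, adjusted p = 7.17e-06), 1.98-fold higher in LZK KO (log2 0.98, SE 0.24, adjusted p = 0.00151, libraries overlapping) and 8.35-fold higher in double KO (log2 3.06, SE 0.20, adjusted p = 9.47e-16). Against untreated Control gRNA it was 9.54-fold higher in ATF2 gRNA (log2 3.25, SE 0.13, adjusted p = 4.31e-25), with the lowest ATF2 gRNA library at 13.6 CPM and the highest Control gRNA library at 1.83. In JUN gRNA it was not called (log2 0.04, 95% interval -0.23 to 0.31, adjusted p = 0.926). The high BDNF level of ATF2 gRNA stood beside a level of JUN of 21.0 CPM in that line. In JUN gRNA, BDNF averaged 1.72 ± 0.250 CPM (SD, n = 5) with JUN at 2.87 CPM. Whether the JUN level plays a part in the BDNF level was not tested.

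BDNF-AS, an antisense gene that overlaps BDNF on the other strand, was looked at because the strand setting of the counting is not given in the sources used here. The library kit marks strand, but without the setting reads of the 2 genes cannot be told apart with certainty. BDNF-AS averaged 2.41 to 4.17 CPM over the groups of experiment 1 and 4.23 to 5.99 CPM in experiment 2. It was called higher with vincristine in WT (log2 0.59, SE 0.21, adjusted p = 0.0326) and in ATF2 gRNA (0.50, SE 0.16, adjusted p = 0.0457), with overlapping libraries in both. It was not called in any comparison of untreated lines. Its values were -0.20 (SE 0.23) in double KO and -0.13 (SE 0.15) in ATF2 gRNA, where BDNF stood 8.35-fold and 9.54-fold higher. The part of shared reads in the BDNF values was not tested.

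NTF3 was close to the detection limit in WT and higher in each untreated knockout line. Untreated WT had 0.0956, 0.186, 0.281 and 0.596 CPM, which are 1 to 6 counts a library, and WT with vincristine had 0.608, 0.18, 0.0869 and 0 CPM, so no change could be seen at this depth (adjusted p = 0.685). Untreated DLK KO had 2.68, 1.80, 1.77 and 1.61 CPM and untreated double KO 1.87, 3.05, 2.35 and 2.05, all above WT. These were log2 rises of 2.73 (SE 0.40, adjusted p = 1.03e-06) and 2.99 (SE 0.39, adjusted p = 4.94e-08) over WT, imprecise because WT had so few counts. LZK KO had 1.14, 0.962, 0.833 and 0.824 CPM untreated, also above every WT library (log2 1.67, SE 0.47, adjusted p = 0.00524).

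Vincristine lowered NTF3 in Control gRNA. Its libraries had 4.24, 2.78, 3.30, 4.65 and 2.70 CPM untreated and 1.73, 1.96, 2.13, 1.36 and 1.94 with vincristine, without overlap (log2 change -0.96, SE 0.16, adjusted p = 4.20e-06). In ATF2 gRNA the levels were 15.3, 15.2, 16.5, 17.1 and 18.2 CPM untreated and 14.2, 14.7, 18.5 and 14.0 with vincristine, and those of JUN gRNA were 5.71, 7.31, 6.77, 4.60 and 5.98 against 4.70, 3.75, 4.80, 6.59 and 6.75. Treated and untreated libraries overlapped in both lines, and neither change was called (-0.10 and -0.19 on the log2 scale). The differences from the Control gRNA response were called, at 0.86 for ATF2 gRNA (SE 0.22, adjusted p = 0.00317) and 0.77 for JUN gRNA (SE 0.22, adjusted p = 0.0111), both against the same Control gRNA libraries. Untreated NTF3 was 4.66-fold higher in ATF2 gRNA than in Control gRNA (log2 2.22, SE 0.15, adjusted p = 8.68e-17) and 1.72-fold higher in JUN gRNA (log2 0.78, SE 0.15, adjusted p = 0.000236, with the lowest JUN gRNA library, at 4.60 CPM, just below the highest Control gRNA library). In DLK KO the vincristine libraries, at 0.485, 1.19, 1.40 and 0.953 CPM, were all below the untreated ones, but the change of -0.94 (SE 0.32) was not called (adjusted p = 0.0684). Voom (-1.06, adjusted p = 0.00788) and the fit of only the groups compared (-0.93, adjusted p = 0.0335) called this NTF3 fall.

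GDNF was scarcely detected. Its counts were 0 to 11 per library in experiment 1 and 0 to 13 in experiment 2, and no comparison of it in experiment 2 was called. In DLK KO it had 1, 0, 2 and 0 counts untreated and 5, 8, 7 and 2 with vincristine, levels at which no fold is given. Neither the ligand of RET and GFRA1 nor a change in it could be measured at this depth.

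**Figure D2:**
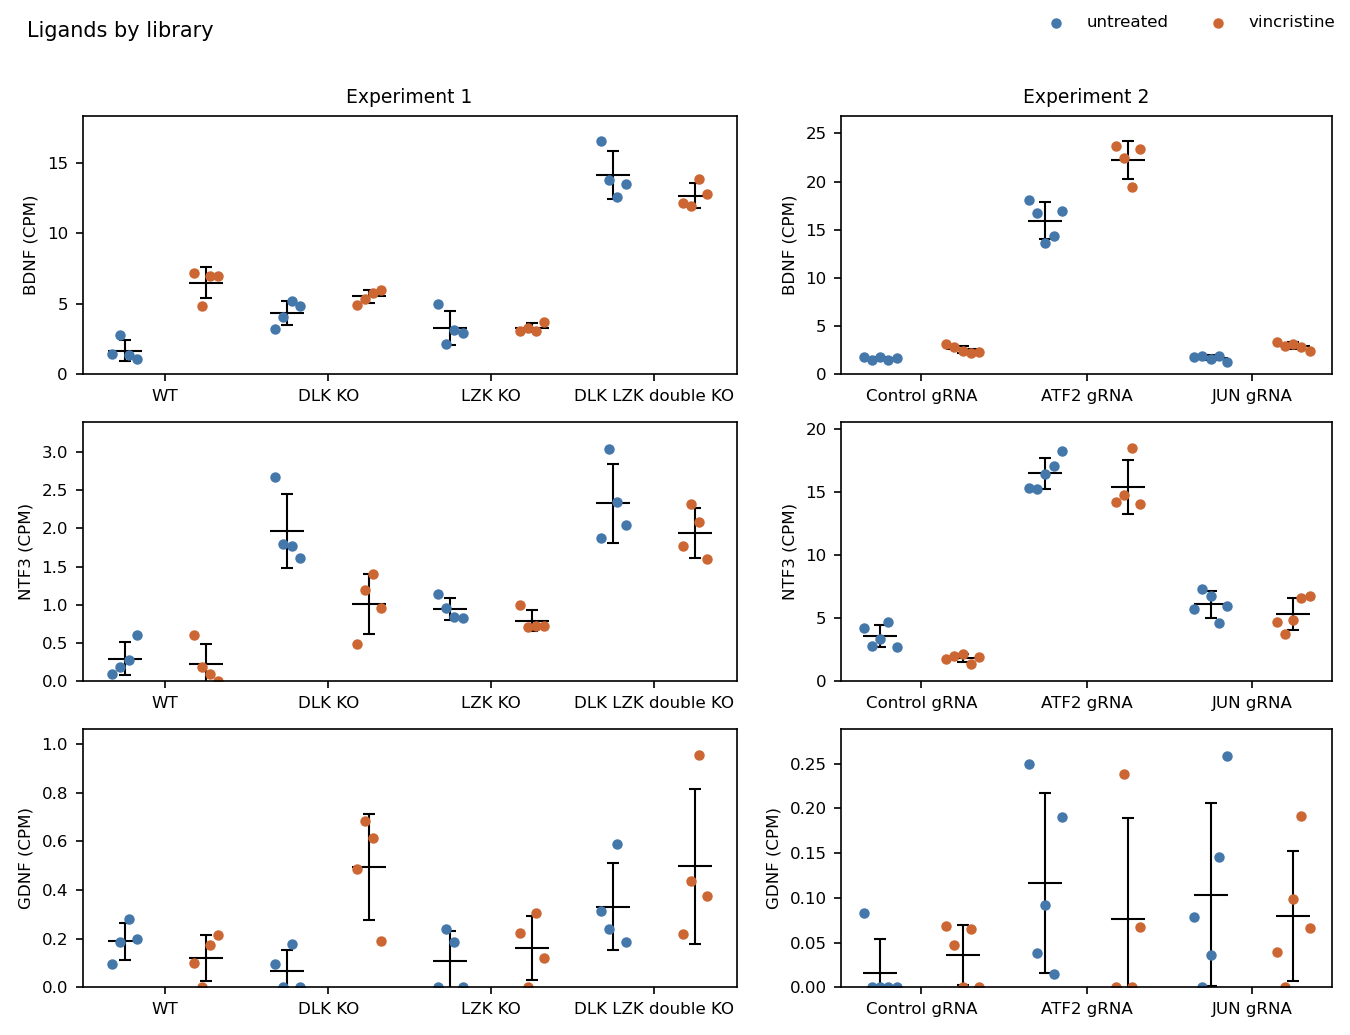
CPM of BDNF, NTF3 and GDNF (y axes, each starting at 0) in every library of experiment 1 (left) and experiment 2 (right), by line; blue points are untreated, orange points vincristine, and black bars the mean ± SD, shown down to 0. BDNF is highest in double KO (11.9 to 16.5 CPM) and in ATF2 gRNA (13.6 to 23.7 CPM), and NTF3 is highest in ATF2 gRNA (14.0 to 18.5 CPM).

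NTRK2, the BDNF receptor gene, rose modestly with vincristine in WT and in LZK KO. WT had 123, 119, 116 and 132 CPM untreated and 157, 150, 168 and 152 with vincristine, without overlap (log2 change 0.35, SE 0.06, adjusted p = 1.96e-05). LZK KO, the line with the lowest NTRK2, had 66.9, 72.2, 61.2 and 60.7 CPM untreated and 78.5, 82.9, 75.3 and 83.8 with vincristine, also apart (0.30, SE 0.06, adjusted p = 0.00347). The LZK KO call was lost when its libraries were fitted alone (adjusted p = 0.0985). DLK KO and double KO, with higher levels, overlapped and were not called: DLK KO had 238, 255, 210 and 245 CPM untreated and 254, 243, 246 and 244 with vincristine (0.06, SE 0.06, adjusted p = 0.598), and double KO had 280, 301, 296 and 285 against 279, 273, 293 and 278 (-0.05, SE 0.06, adjusted p = 0.884). The responses of DLK KO (-0.30, SE 0.09, adjusted p = 0.0127) and double KO (-0.40, SE 0.09, adjusted p = 0.000653) differed from that of WT, and that of LZK KO did not pass the test (-0.06, 95% interval -0.23 to 0.12). The NTRK2 difference in DLK KO lost its call with no filter on low counts (adjusted p = 0.0879). Double KO also differed from LZK KO (-0.35, SE 0.09, adjusted p = 0.0416; 0.916% of all genes were called, 0.17% higher and 0.746% lower), the 1 member of 7 called there. That call was lost under RLE scaling, without a filter on low counts, in the other settings given at the end, and in 14 of 16 fits that left out a library, with adjusted p up to 0.136.

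The level of NTRK2 split the untreated knockout lines in opposite directions. It was higher than in WT by 0.95 on the log2 scale in DLK KO (SE 0.06, adjusted p = 2.24e-15) and by 1.25 in double KO (SE 0.06, adjusted p = 5.19e-19), and lower in LZK KO (-0.91, SE 0.06, adjusted p = 2.12e-14), with no overlap in any of the 3. In experiment 2 it was higher in untreated JUN gRNA than in Control gRNA (0.52, SE 0.05, adjusted p = 5.28e-11) and lower in ATF2 gRNA (-0.31, SE 0.05, adjusted p = 1.75e-06). Control gRNA had 89.9, 87.1, 96.2, 93.7 and 93.4 CPM untreated and 94.4, 92.8, 100, 95.1 and 96.7 with vincristine, which overlapped (adjusted p = 0.434). ATF2 gRNA went from 72.3, 75.2, 77.3, 77.2 and 69.7 CPM to 79.3, 96.6, 80.6 and 84.0 (0.19, SE 0.05, adjusted p = 0.0182), a call that was lost without untreated library 5 (0.17, adjusted p = 0.0644) or vincristine library 3 (0.13, adjusted p = 0.146). JUN gRNA had 133, 138, 124, 136 and 131 CPM untreated and 115, 124, 116, 140 and 115 with vincristine (-0.11, SE 0.05, adjusted p = 0.127). ATF2 gRNA and JUN gRNA differed in this response (0.31, SE 0.07, adjusted p = 0.00869), as 1 of 8 members against 2.83% of all genes (0.91% higher and 1.92% lower).

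NTRK3, the receptor gene for NT-3, was lower with vincristine in Control gRNA. Its libraries went from 178, 137, 158, 134 and 155 CPM to 121, 101, 112, 111 and 112 without overlap (log2 change -0.45, SE 0.06, adjusted p = 1.57e-07). ATF2 gRNA, with 128, 152, 148, 141 and 129 CPM untreated and 128, 130, 136 and 119 with vincristine, and JUN gRNA, with 162, 177, 167, 168 and 164 against 153, 171, 143, 160 and 165, overlapped and were not called. Both differed from the Control gRNA response, by 0.33 (SE 0.09, adjusted p = 0.00579) and 0.37 (SE 0.09, adjusted p = 0.00196). In experiment 1 no line's change was called. WT had 152, 157, 151 and 180 CPM untreated and 160, 136, 169 and 121 with vincristine (-0.13, SE 0.08, adjusted p = 0.22). DLK KO had 177, 190, 162 and 168 against 157, 155, 144 and 158, apart but not called (-0.18, SE 0.08, adjusted p = 0.149).

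Untreated NTRK3 was highest in the line with the lowest NTRK2. LZK KO had 340, 375, 318 and 330 CPM, and double KO 287, 296, 298 and 270, both above every WT library. The rises over WT were 1.09 (SE 0.08, adjusted p = 3.79e-14) and 0.85 (SE 0.08, adjusted p = 1.26e-11) on the log2 scale, and DLK KO was not called (0.12, SE 0.08, adjusted p = 0.238). Voom called NTRK3 higher in untreated DLK KO (0.14, adjusted p = 0.0441). With vincristine, LZK KO stood at 318, 295, 282 and 337 CPM and double KO at 277, 277, 282 and 281. In experiment 2 neither ATF2 gRNA (-0.13, adjusted p = 0.0985) nor JUN gRNA (0.14, adjusted p = 0.17) was called against Control gRNA before treatment. With 1 library left out, edgeR called ATF2 gRNA lower in 3 of 10 fits (lowest adjusted p = 0.0203). It called JUN gRNA higher in 1 of 10 (adjusted p = 0.0165).

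SORT1 fell with vincristine in both control lines. In the other 5 lines edgeR did not call it, while DESeq2 called it lower in JUN gRNA. WT went from 134, 140, 133 and 142 CPM to 108, 106, 111 and 101 (log2 change -0.37, SE 0.06, adjusted p = 6.19e-06). Control gRNA went from 171, 181, 165, 175 and 185 CPM to 113, 109, 117, 109 and 102 (-0.67, SE 0.04, adjusted p = 3.18e-18). In both, treated and untreated libraries lay far apart. DLK KO had 165, 175, 155 and 153 CPM untreated and 167, 166, 164 and 166 with vincristine, LZK KO 139, 135, 144 and 142 against 138, 122, 138 and 157, and double KO 177, 166, 163 and 174 against 178, 175, 174 and 165. All 3 overlapped, with log2 changes from -0.01 to 0.04. Each differed from WT: by 0.40 in DLK KO (SE 0.08, adjusted p = 0.000577), 0.36 in LZK KO (SE 0.08, adjusted p = 0.00314) and 0.39 in double KO (SE 0.08, adjusted p = 0.000641).

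The same contrast held in experiment 2 for SORT1. ATF2 gRNA had 238, 238, 241, 220 and 232 CPM untreated and 223, 251, 231 and 243 with vincristine (log2 change 0.02, SE 0.04), and JUN gRNA had 176, 186, 164, 180 and 188 against 162, 164, 174, 167 and 160 (-0.11, SE 0.04, adjusted p = 0.0517). SORT1 in JUN gRNA was called lower by DESeq2 (-0.11, adjusted p = 0.0355), and by edgeR with a filter at 1 CPM (0.0391), with no filter (0.0411), without untreated library 3 (-0.14, adjusted p = 0.0127) and without vincristine library 3 (-0.13, adjusted p = 0.0297). They differed from the Control gRNA response by 0.69 (SE 0.06, adjusted p = 7.22e-13) and 0.56 (SE 0.06, adjusted p = 2.62e-10). Between them the difference of 0.13 was not called (adjusted p = 0.293). Untreated SORT1 was higher in ATF2 gRNA (0.41, SE 0.04, adjusted p = 8.13e-12), in DLK KO (0.24, SE 0.06, adjusted p = 0.00155) and in double KO (0.31, SE 0.06, adjusted p = 3.97e-05) than in the control line of the same experiment.

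RET, the signalling receptor of the GDNF family, gave the steepest fall in WT. Its levels went from 31.6, 32.5, 34.3 and 33.0 CPM to 23.0, 21.7, 21.0 and 10.7 (log2 change -0.78, SE 0.12, adjusted p = 7.05e-06). The lowest value is that of library 4, which stood apart, and without it the change was -0.59 (SE 0.09, adjusted p = 7.05e-07). DLK KO had 51.8, 57.3, 55.9 and 59.5 CPM untreated and 54.8, 57.8, 56.6 and 59.6 with vincristine, and LZK KO 22.2, 16.6, 21.7 and 21.0 against 18.6, 22.0, 17.7 and 24.1. Double KO had 74.8, 72.2, 68.7 and 70.2 CPM untreated and 59.4, 67.8, 69.2 and 64.9 with vincristine. In all 3 knockout lines the libraries overlapped and no change was called. They differed from WT by 0.80 (SE 0.17, adjusted p = 0.000736), 0.78 (SE 0.18, adjusted p = 0.00318) and 0.65 (SE 0.17, adjusted p = 0.00489) in the order DLK KO, LZK KO and double KO. Without library 4 of WT vincristine these were 0.62, 0.60 and 0.46, all still called.

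In experiment 2 RET fell in every line, most in Control gRNA. Control gRNA went from 79.5, 87.1, 81.0, 82.1 and 85.6 CPM to 51.7, 51.9, 53.7, 49.0 and 49.5 (log2 change -0.70, SE 0.05, adjusted p = 2.82e-16). JUN gRNA went from 92.6, 94.7, 101, 89.2 and 93.7 to 78.0, 66.7, 73.6, 69.5 and 76.5 (-0.37, SE 0.05, adjusted p = 7.46e-08), and ATF2 gRNA from 96.0, 90.4, 95.6, 100 and 99.4 to 75.4, 89.3, 88.1 and 86.4 (-0.18, SE 0.05, adjusted p = 0.021). Libraries were apart in each line, and the falls in ATF2 gRNA (difference 0.51, SE 0.07, adjusted p = 1.80e-07) and JUN gRNA (0.33, SE 0.07, adjusted p = 0.000414) were smaller than in Control gRNA. The call of the ATF2 gRNA fall was lost without untreated library 4 (-0.17, adjusted p = 0.0585), untreated library 5 (-0.17, adjusted p = 0.0557) or vincristine library 2 (-0.13, adjusted p = 0.191). Voom (-0.16, adjusted p = 0.0571) and the fit of only the groups compared (-0.18, adjusted p = 0.0757) did not call it either. Untreated RET, like NTRK2, was higher than WT in DLK KO (0.77, SE 0.12, adjusted p = 1.75e-06) and double KO (1.12, SE 0.12, adjusted p = 3.70e-10) and lower in LZK KO (-0.69, SE 0.13, adjusted p = 3.95e-05). Against Control gRNA it was higher by 0.21 in ATF2 gRNA (SE 0.05, adjusted p = 0.000288) and by 0.18 in JUN gRNA (SE 0.05, adjusted p = 0.00803).

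GFRA1, the co-receptor that presents GDNF to RET, fell in the same 4 lines. WT went from 132, 146, 145 and 157 CPM to 92.5, 99.3, 108 and 82.8 (log2 change -0.60, SE 0.07, adjusted p = 2.00e-08), and Control gRNA from 209, 191, 191, 180 and 191 to 151, 140, 145, 140 and 144 (-0.42, SE 0.04, adjusted p = 1.14e-10). ATF2 gRNA went from 178, 188, 189, 186 and 168 to 146, 148, 160 and 149 (-0.27, SE 0.05, adjusted p = 0.000132), and JUN gRNA from 176, 173, 173, 164 and 168 to 140, 147, 129, 145 and 163 (-0.24, SE 0.04, adjusted p = 6.75e-05). All 4 pairs of groups were apart. The difference from Control gRNA was 0.15 in ATF2 gRNA (95% interval 0.02 to 0.28, adjusted p = 0.106) and 0.18 in JUN gRNA (SE 0.06, adjusted p = 0.0469). The JUN gRNA difference lost its call under several other settings and in 16 of 20 fits that left out a library, with adjusted p up to 0.167.

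In the knockout lines GFRA1 did not pass the test. DLK KO had 140, 147, 141 and 152 CPM untreated and 146, 151, 146 and 148 with vincristine, LZK KO 71.8, 71.2, 86.0 and 73.1 against 71.6, 75.5, 74.6 and 88.8, and double KO 168, 173, 180 and 166 against 160, 164, 166 and 155, all overlapping. They differed from WT by 0.63 (SE 0.10, adjusted p = 1.84e-05), 0.64 (SE 0.10, adjusted p = 3.23e-05) and 0.51 (SE 0.10, adjusted p = 0.000277). Untreated GFRA1 was lower in LZK KO than in WT (-0.94 on the log2 scale, SE 0.07, adjusted p = 3.58e-13). Double KO was slightly higher (0.25, SE 0.07, adjusted p = 0.00416), and DLK KO did not differ detectably (0.00, 95% interval -0.14 to 0.14). In experiment 2 untreated GFRA1 was lower in JUN gRNA than in Control gRNA (-0.17, SE 0.04, adjusted p = 0.0064) and not called in ATF2 gRNA (-0.08, adjusted p = 0.148).

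**Figure D3:**
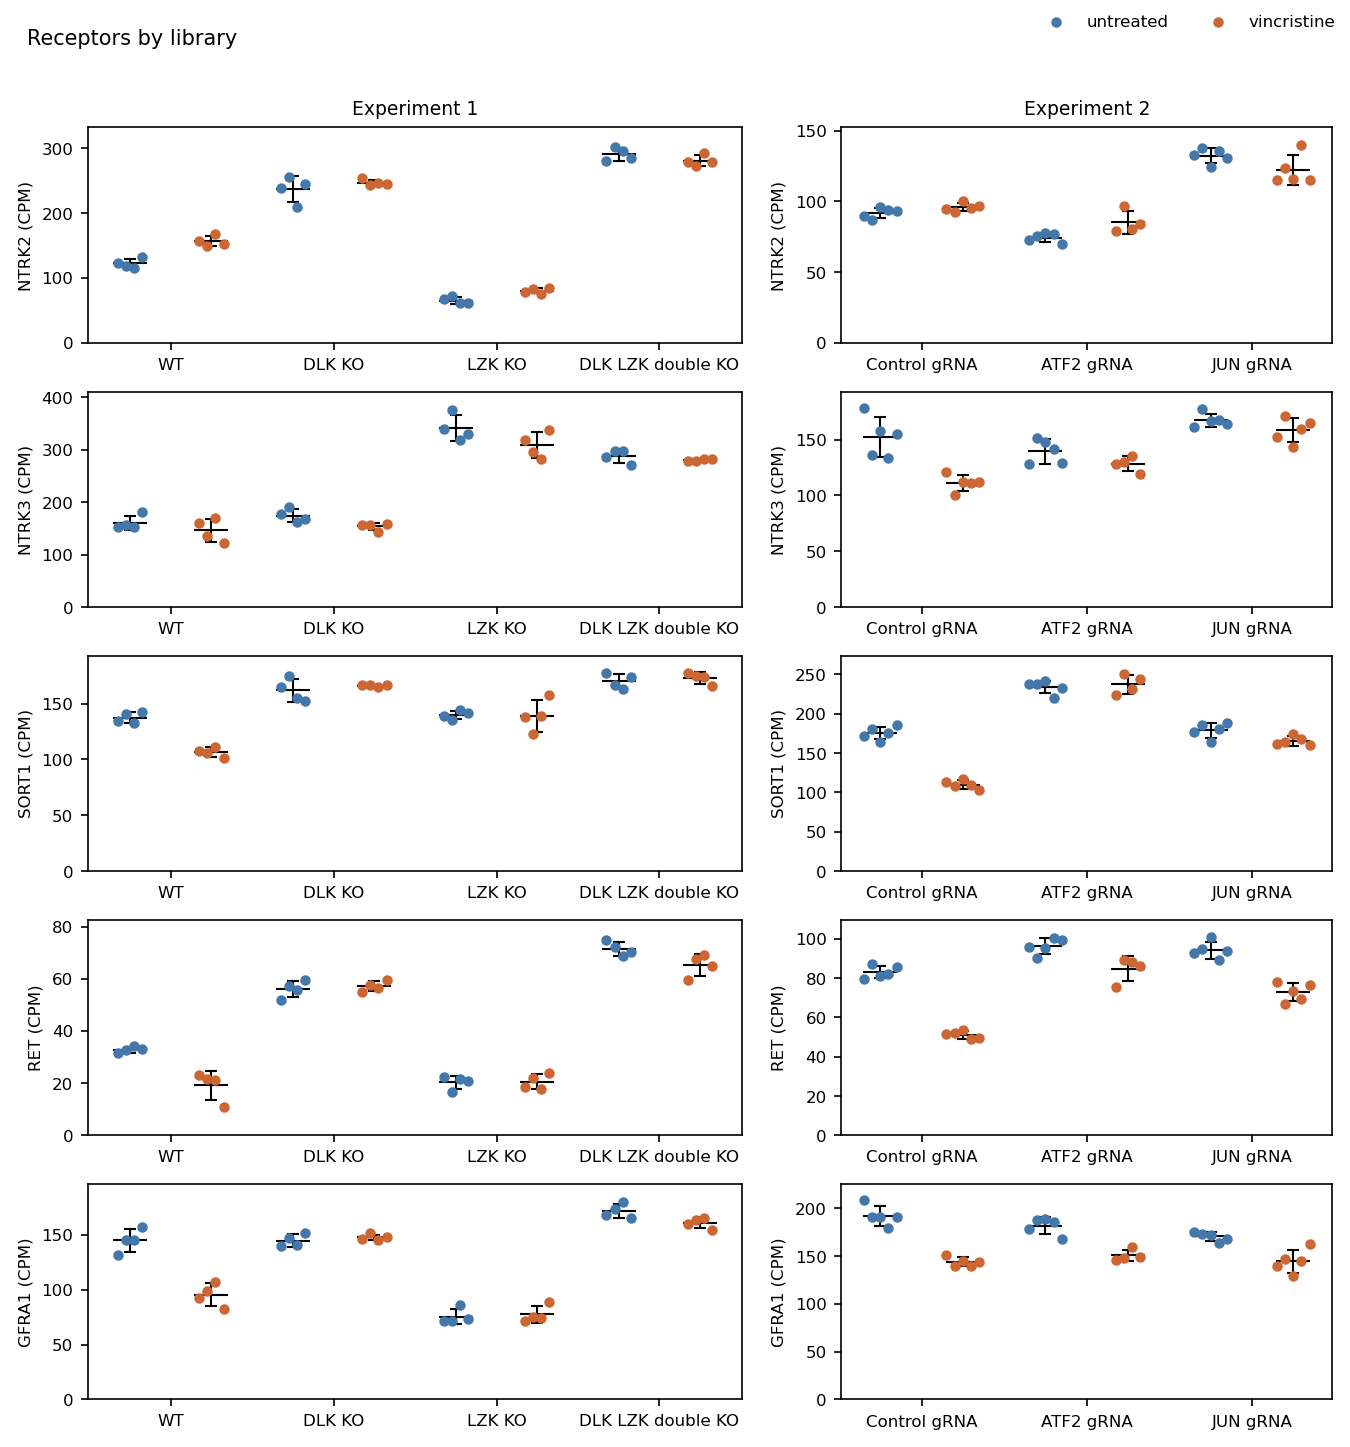
CPM of the 5 receptor genes (y axes, each starting at 0) in every library of experiment 1 (left) and experiment 2 (right), by line; blue points are untreated, orange points vincristine, and black bars the mean ± SD. SORT1, RET and GFRA1 drop with vincristine in WT and Control gRNA, and LZK KO has the lowest NTRK2 (60.7 to 83.8 CPM) and the highest NTRK3 (282 to 375 CPM).

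Counted over members, the differences in response between lines were as follows. Against WT, 5 of 7 members differed in DLK KO (19.4% of all genes were called, 9.95% higher and 9.41% lower), 4 of 7 in LZK KO (12.4%, 5.88% higher and 6.53% lower) and 5 of 7 in double KO (19.4%, 9.21% higher and 10.2% lower). In each of the 3, BDNF was called lower and SORT1, RET and GFRA1 higher, which left the change in the knockout nearer to 0 than in WT. Between double KO and DLK KO 0 of 7 differed (1.14% of all genes, 0.126% higher and 1.01% lower), with BDNF at an unadjusted p under 0.05 (-0.49, adjusted p = 0.281) and 0 called by DESeq2. In experiment 2, 4 of 8 differed between ATF2 gRNA and Control gRNA (20.6% of all genes, 10.2% higher and 10.4% lower) and 5 of 8 between JUN gRNA and Control gRNA (15.8%, 8.71% higher and 7.06% lower), all of them less negative than in Control gRNA. BDNF was in neither set. The NTRK2 difference of JUN gRNA from Control gRNA went the other way and was not called in the fit used here. Other settings called it lower. They were edgeR with a filter at 1 CPM (-0.19, adjusted p = 0.0440), with no filter (-0.21, 0.0379) and with only the groups compared (-0.18, 0.0481), and voom (-0.18, 0.0199).

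Among the untreated lines, double KO stood out by having all 7 tested members called higher than in WT (45.7% of all genes were called, 23.6% higher and 22.1% lower). In DLK KO 5 of 7 were called, all higher (34.5% of all genes, 16.5% higher and 17.9% lower). In LZK KO 6 of 7 were called: BDNF, NTF3 and NTRK3 higher, NTRK2, RET and GFRA1 lower (33.9% of all genes, 17.1% higher and 16.8% lower). In ATF2 gRNA 5 of 8 were called, 4 of them higher (39.9% of all genes, 19.7% higher and 20.2% lower), and in JUN gRNA 4 of 8, of which NTF3, NTRK2 and RET were higher and GFRA1 lower (11.2% of all genes, 5.78% higher and 5.46% lower). Libraries were apart in 36.6% of all genes in DLK KO, 30.8% in LZK KO, 47.2% in double KO, 29.4% in ATF2 gRNA and 9.22% in JUN gRNA. These comparisons share the untreated WT or the untreated Control gRNA libraries. Marker sums differed between the same untreated lines. Progenitor sums averaged 800 CPM in WT against 280 (DLK KO), 686 (LZK KO) and 326 (double KO), and pluripotency sums 2.55 against 7.91, 15.4 and 54.2. Sensory sums averaged 450.3 CPM in WT against 245 (DLK KO), 213 (LZK KO) and 454 (double KO). With Control gRNA, ATF2 gRNA and JUN gRNA in that order, progenitor sums averaged 1366, 824 and 1048 CPM, sensory sums 521, 255 and 451, GABAergic sums 1.18, 25.7 and 1.53, and pluripotency sums 4.45, 16.2 and 9.39. The higher pluripotency sums were mostly LIN28A, which reached 60.2 CPM in experiment 1 and 20.9 in experiment 2. POU5F1 reached at most 1.04 and 0.81 CPM, and NANOG and TDGF1 stayed lower still. The part of these marker differences in the members' line differences was not tested.

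**Figure D4:**
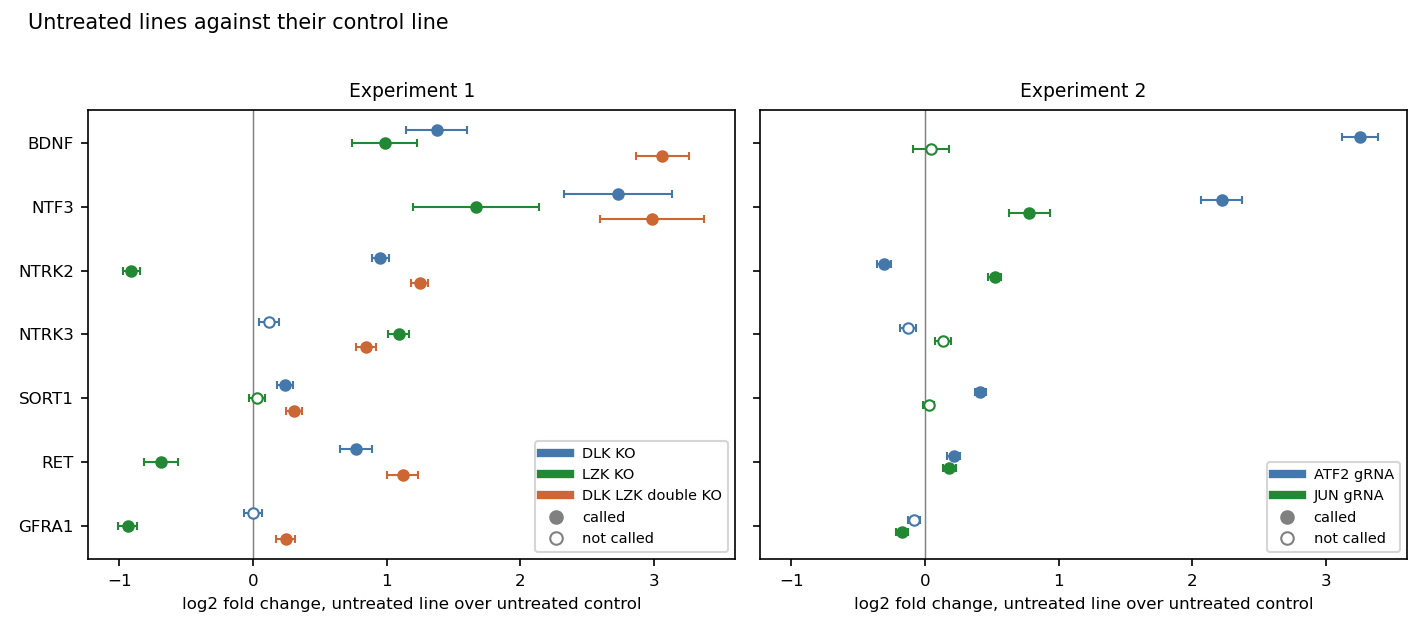
Log2 fold change of each untreated line over the untreated control line of its experiment (x axis) for the 7 members tested in both experiments (y axis), with bars of 1 standard error; filled points were called and open points were not. Double KO lies right of 0 for all 7 members (0.25 to 3.06), and LZK KO lies left of 0 for NTRK2, RET and GFRA1.

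The rest of the pathway was counted from 6 lists with 66 genes, of which 55 could be tested in experiment 1 and 60 in experiment 2. With vincristine, 18 rose and 10 fell in WT (beside 30.2% of all genes called), 19 rose and 18 fell in Control gRNA (35.3%), 14 rose and 10 fell in JUN gRNA (15.9%) and 12 rose and 1 fell in DLK KO (6.53%). In ATF2 gRNA 7 rose and 4 fell (6.10% of all genes), in LZK KO 4 rose and 2 fell (3.88%), and in double KO 0 were called (0.0658%). The same shares stand beside the counts of each list. The median log2 change of all listed genes was 0.06 in WT and 0.05 in Control gRNA. Genes that respond to ERK signalling, which Trk receptors and RET activate, were mostly called in the control lines: of 8 tested, 6 rose and 1 fell in WT (median 1.24) and 5 rose and 1 fell in Control gRNA (median 1.32). In DLK KO 3 rose, in LZK KO 2, in double KO 0, in ATF2 gRNA 3, and in JUN gRNA 5 rose and 2 fell.

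EGR1, an immediate early transcription factor, rose by 4.01 on the log2 scale in WT (SE 0.16, adjusted p = 1.03e-18) and by 3.20 in Control gRNA (SE 0.11, adjusted p = 1.94e-18). Its change was 2.92 in JUN gRNA, 2.19 in LZK KO, 0.79 in DLK KO and 0.41 in ATF2 gRNA, all called, and 0.06 in double KO, not called. FOS rose by 2.91 in WT (SE 0.16, adjusted p = 4.18e-17) and ARC, a synaptic plasticity gene, by 2.70 in Control gRNA (SE 0.15, adjusted p = 4.70e-18). VGF, a neurosecretory protein gene known as a target of neurotrophins, rose by 1.14 in WT (SE 0.17, adjusted p = 5.88e-06) and 1.19 in Control gRNA (SE 0.09, adjusted p = 4.46e-11). In untreated ATF2 gRNA, 6 of the 8 ERK-responsive genes were called higher than in Control gRNA and 2 lower (median 1.48; 39.9% of all genes called). The higher genes were led by EGR1 (5.27, SE 0.11), with 536 ± 16.4 CPM against 13.9 ± 1.94 (SD, n = 5). In untreated double KO, EGR1 was lower than in WT (-1.98, SE 0.20, adjusted p = 5.96e-10). There 3 of the 8 were called higher and 2 lower (45.7% of all genes called). Untreated JUN gRNA, where BDNF was not called, had 5 of the 8 higher and 0 lower (11.2% of all genes). DLK KO had 6 higher and 0 lower (34.5%), and LZK KO 0 higher and 2 lower (33.9%). Any link between these genes and the BDNF level was not tested.

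Of 13 other receptors and co-receptors of these ligands, 3 were called higher and 4 lower in untreated DLK KO, 9 and 0 in LZK KO, and 6 and 3 in double KO (34.5%, 33.9% and 45.7% of all genes were called). Against Control gRNA, 5 were higher and 7 lower in ATF2 gRNA (39.9% of all genes), and 4 and 5 in JUN gRNA (11.2%). NGFR, which encodes the p75NTR partner of sortilin, averaged 17.3 ± 2.28 CPM in untreated WT. LZK KO had 41.2 ± 4.18 CPM and double KO 131 ± 6.32 (SD, n = 4), rises of 1.25 (SE 0.12, adjusted p = 8.68e-11) and 2.92 (SE 0.12, adjusted p = 1.59e-21) on the log2 scale. In ATF2 gRNA NGFR was lower than in Control gRNA (-1.60, SE 0.09, adjusted p = 3.02e-19). GFRA2, the neurturin co-receptor, was higher in DLK KO (0.69, SE 0.14), LZK KO (1.29, SE 0.14) and double KO (2.47, SE 0.13, adjusted p = 3.23e-18). NCAM1, an adhesion molecule that also binds GDNF with GFRA1, was lower in double KO (-1.14, SE 0.07, adjusted p = 1.35e-15) and in ATF2 gRNA (-0.57, SE 0.03, adjusted p = 9.81e-23). GFRA3, the artemin co-receptor, was called higher in untreated LZK KO (0.99, SE 0.33, adjusted p = 0.0193), at 1.97 CPM.

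With vincristine, the sortilin relatives moved apart. SORCS1 rose by 1.11 in WT (SE 0.10, adjusted p = 1.28e-11) and 1.38 in Control gRNA (SE 0.08, adjusted p = 7.56e-20), and SORCS3 was lower (-0.51, SE 0.10, adjusted p = 8.29e-05, and -0.77, SE 0.10, adjusted p = 1.35e-08). Of the other receptors and co-receptors, 2 rose and 1 fell of 13 in WT (30.2% of all genes called) and 6 rose and 5 fell in Control gRNA (35.3%). Among other ligands, MANF, an endoplasmic reticulum stress protein with neurotrophic activity, was lower in WT (-1.58, SE 0.11, adjusted p = 5.91e-14), CNTF was higher in WT (1.25, SE 0.37, adjusted p = 0.00802), and GDF15 was higher in Control gRNA (2.77, SE 0.33, adjusted p = 3.26e-09). NTF4 had at most 1 count in any library of experiment 1 and 6 in experiment 2.

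Of the proneurotrophin-processing genes, 1 rose and 2 fell of 5 tested in WT, and 1 rose and 3 fell of 6 in Control gRNA (30.2% and 35.3% of all genes called). PCSK7 was lower in WT (-0.33, SE 0.11, adjusted p = 0.0216) and PCSK1 lower in Control gRNA (-0.82, SE 0.05, adjusted p = 8.31e-20). FURIN, which cleaves the precursors, was not called in WT (-0.29, adjusted p = 0.092) or Control gRNA (-0.05, adjusted p = 0.713). Of 16 adaptors and scaffolds, 5 rose and 3 fell in WT and 5 rose and 4 fell in Control gRNA. They were led by SHC2 (0.85, SE 0.14, and 0.93, SE 0.06), SHC3 in WT (0.60, SE 0.09) and GAB2 in Control gRNA (0.72, SE 0.04), which link Trk receptors to their downstream kinases. Of 8 feedback inhibitors, 2 rose and 2 fell in WT and 0 rose and 4 fell in Control gRNA. LRIG1, which restrains receptor tyrosine kinases including RET, was lower in WT (-0.67, SE 0.12) and Control gRNA (-0.44, SE 0.08), SPRED2 was higher in WT (0.31, SE 0.07) and SPRED1 lower in Control gRNA (-0.37, SE 0.08).

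For each member tested in both experiments, the 3 genes with the most similar pattern were taken by the smaller of the Pearson correlations over the 32 libraries of experiment 1 and the 29 of experiment 2, among 12337 genes. Libraries of a group share their line and treatment, so these values describe group patterns and carry no p. BDNF was most like ABCA1 (r = 0.88 and 0.94), TMTC2 and LRP1B, and NTF3 was most like SHISA6 (0.90 and 0.90), NXPH1 and LIMCH1. NTRK2 was most like FAM214A (0.83 and 0.82), RAP1GAP and GALNTL6, and NTRK3 like PWWP2A (0.84 and 0.87), ROBO2 and POU4F2. SORT1 was most like LRRN1 (0.94 and 0.95), RCC2 and SHISA6, and RET like EFNB1 (0.94 and 0.95), C3orf70 and RGS8. GFRA1 was most like CTNNB1 (0.85 and 0.84), UCK2 and UBE2G2. No member was among the 3 nearest genes of another.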

How the data were processed

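The authors deposited a table of raw counts per gene for each experiment, with whole numbers that are not normalized. Per the submitters' processing notes, reads were handled with cutadapt 3.4, STAR and featureCounts (Subread 2.0.1) on GRCh38; the strand setting of the counting is not given in the sources used here. Per the labels, libraries came from poly(A)-selected RNA with a kit that marks strand. Symbols were matched through GENCODE 29 for 58320 of 58440 identifiers, of which 56947 had the same version and start, and 0 count columns were left unused. The genes followed here and the pathway and marker lists were chosen with earlier results of these data known.

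In R 4.3.3, each experiment was fitted on its own with the quasi-likelihood test of edgeR 4.0.16 (filterByExpr by group, TMM factors, robust, 1 mean per group, all groups in 1 fit), which left 18235 and 20759 genes. P-values are 2-sided, with the Benjamini-Hochberg adjustment across the genes tested and calls made under 0.05. There were 20 comparisons: vincristine in each line, line differences in that effect, and untreated lines against their control. Dividing a log2 change by the square root of its F gave the standard error, and 95% intervals follow from them. Named are the members, the targeted genes, genes overlapping a member, per pathway list the 2 called genes with the largest change in WT and in Control gRNA, 9 genes that pair directly with a member, and the 3 most similar genes. Some genes that this rule names are not reported here. No libraries were duplicates. At 8410729 to 14647819 counts per library in experiment 1 and 38925807 to 88392414 in experiment 2, counting error limits NTF3 and GDNF. It also adds to the error of BDNF where its level is low in experiment 1, as in untreated WT. The number of libraries limits the rest. No library 1 of ATF2 gRNA vincristine was among the samples and count columns available here.

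Alternatives were DESeq2 1.42.0, RLE factors, no low-count filter, a minimum mean level of 1 CPM, a replicate block, fits restricted to the groups being compared, and each library left out in turn. Added after seeing the data was limma 3.58.1 voom with sample quality weights. The fits were tested on simulated data.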

Additional observations from a re-analysis of the deposited data

Results flagged for a closer look

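In 100 sets of 4 or 5 libraries, 5 had a library far from the others by Dixon's ratio of the gap to the whole range, about the 1 in 20 that chance gives. BDNF in WT vincristine library 2 was low (ratio 0.898; 4.86 against the next at 6.95 CPM), NTF3 in DLK KO untreated library 1 was high (0.8294; 2.68 against 1.80), RET in WT vincristine library 4 was low (0.841; 10.7 against 21.0), GFRA1 in LZK KO untreated library 3 was high (0.872; 86.0 against 73.1), and NTF3 in ATF2 gRNA vincristine library 4 was high (0.837; 18.5 against 14.7). Library 4 of WT vincristine also stood apart over all genes.

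The response to vincristine differed between lines for 25 pairs of a member and a contrast, by the interaction test of edgeR adjusted over all genes. Values are differences on the log2 scale. For BDNF against WT they were -1.60 (DLK KO), -1.95 (LZK KO) and -2.10 (double KO). For SORT1 they were 0.40, 0.36 and 0.39 in the same order, for RET 0.80, 0.78 and 0.65, and for GFRA1 0.63, 0.64 and 0.51. For NTRK2 they were -0.30 in DLK KO and -0.40 in double KO against WT, -0.35 in double KO against LZK KO, and 0.31 in ATF2 gRNA against JUN gRNA. Against Control gRNA, NTF3 differed by 0.86 (ATF2 gRNA) and 0.77 (JUN gRNA), NTRK3 by 0.33 and 0.37, SORT1 by 0.69 and 0.56, and RET by 0.51 and 0.33, and GFRA1 differed by 0.18 in JUN gRNA. The contrasts against WT share the WT libraries, and those against Control gRNA share the Control gRNA libraries.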

How the results depend on the processing

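Of 71 calls of a member in a comparison, 65 held under every alternative run and 6 were lost under at least 1. Of 2825 alternative values, 2680 kept their direction and side of the threshold, 50 lost a call, 23 gained one, and 72 changed sign in 26 results that were called neither as reported nor in that fit. Fitting only the groups compared gave 2 members called in DLK KO in place of 0 (NTF3 and NTRK3), 0 in LZK KO in place of 1, 2 in ATF2 gRNA in place of 4 and 0 for double KO against LZK KO in place of 1. Voom with quality weights also called 2 in DLK KO, and it lost RET in ATF2 gRNA (adjusted p = 0.0571). For double KO against LZK KO, RLE factors and no filter on low counts gave 0. The replicate numbers of the libraries did not pair them (correlations of same-numbered libraries from -0.41 to 0.19 in experiment 1 and -0.07 to 0.06 in experiment 2). With the replicate block, NTRK2 in double KO against LZK KO gave 0 calls in place of 1 (adjusted p = 0.0693) and GFRA1 in JUN gRNA against Control gRNA was lost (adjusted p = 0.0625), and the other 146 of 148 values kept their side of the threshold. GFRA1 there was also lost under RLE factors (0.0529), the 1 CPM filter (0.0592), no filter (0.184), voom (0.168) and the groups compared alone (0.0721), and NTRK2 in DLK KO against WT was lost with no filter (0.0879). Leaving out 1 library gave 0 to 1 members for double KO against LZK KO, 2 to 4 in ATF2 gRNA and 1 to 2 for ATF2 gRNA against JUN gRNA; without untreated library 1 of Control gRNA, GDNF was called in untreated ATF2 gRNA (adjusted p = 0.016). Counts over all genes moved by over 1.5 times where only the groups compared were fitted (WT 5498 to 3529, DLK KO 1190 to 3207, LZK KO 707 to 271, double KO 12 to 1028, LZK KO against WT 2262 to 1082, double KO against DLK KO 207 to 3208, ATF2 gRNA 1267 to 768), under voom (3583 in DLK KO, 67 in double KO, 3533 for LZK KO against WT, 3543 to 5867 for double KO against WT, 2757 for double KO against DLK KO, 167 to 347 for double KO against LZK KO), and for double KO against DLK KO with no filter (536) and with DESeq2 (429). The cause was not tested. Scaling by library total alone moved 12 of 112 group means by over 1 SD, and RLE factors moved 0.

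The log2 values that changed sign with only the groups compared were BDNF 0.0012 in LZK KO and NTRK3 0.0098 in LZK KO against WT. With voom they were BDNF 0.12 in double KO against LZK KO, NTF3 -0.13 in LZK KO against WT, NTF3 -0.071 in double KO against WT, NTF3 0.056 in double KO against LZK KO, GDNF 0.21 in JUN gRNA, NTRK3 -0.0090 in double KO against WT, RET -0.14 in LZK KO, RET 0.010 in double KO against LZK KO, GFRA1 0.023 in ATF2 gRNA against JUN gRNA, and GFRA1 0.011 in untreated DLK KO. In untreated DLK KO, GFRA1 was also 0.012 with no filter on low counts and 0.00029 with the replicate block. With 1 library left out, these ranges crossed 0. In LZK KO they were -0.15 to 0.25 for BDNF, -0.074 to 0.048 for SORT1, -0.075 to 0.077 for RET and -0.034 to 0.12 for GFRA1. WT gave -1.49 to 0.12 for NTF3. DLK KO gave -0.0062 to 0.089 for NTRK2 and -0.014 to 0.048 for RET. ATF2 gRNA gave -0.0013 to 0.055 for SORT1, and JUN gRNA -0.95 to 0.27 for GDNF. DLK KO against WT gave -1.07 to 0.54 for NTF3 and -0.13 to 0.016 for NTRK3. LZK KO against WT gave -0.36 to 1.25 for NTF3 and -0.094 to 0.062 for NTRK3. Double KO gave -0.38 to 1.23 for NTF3 against WT, -0.13 to 0.14 for NTF3 and -0.024 to 0.10 for SORT1 against LZK KO, and -0.047 to 0.022 for SORT1 against DLK KO. ATF2 gRNA against JUN gRNA gave -0.0076 to 0.19 for NTF3, -1.87 to 0.38 for GDNF, -0.070 to 0.013 for NTRK3 and -0.067 to 0.019 for GFRA1. Among untreated lines, LZK KO gave -0.019 to 0.032 for SORT1 and DLK KO -0.032 to 0.047 for GFRA1.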

Other observations

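Neighbouring genes on the chromosome were summarised beside the members. Over the 20 tested genes on each side of a member, the median log2 difference from the control line in untreated cells lay between -0.16 and 0.27 in all lines. Around BDNF it was -0.02 in double KO, with 11 of the 40 neighbours called higher and 10 lower, where BDNF itself stood at 3.06, and 0.27 in ATF2 gRNA, with 13 higher and 5 lower, where BDNF stood at 3.25. Around RET in double KO it was 0.24, with 20 called higher and 4 lower, beside 1.12 for RET. Around NTRK2 in double KO it was 0.25, with 18 called higher and 6 lower, beside 1.25 for NTRK2. Over all genes, 45.7% were called in untreated double KO (23.6% higher and 22.1% lower). In untreated ATF2 gRNA 39.9% were called (19.7% higher and 20.2% lower).

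AC103796.1, which overlaps the start region of BDNF on the same strand, had at most 5 counts in any library of experiment 1 and 4 in experiment 2. NTRK3-AS1, on the strand opposite NTRK3, had at most 4 counts in experiment 1 and 0 in experiment 2.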
